A study of Mus musculus with 10 samples.

Results

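The genes described here are 10 genes of goblet cells and of the mucus they secrete: Muc2, Fcgbp, Clca1, Zg16, Agr2, Tff3, Spink4, Spdef, Atoh1 and Retnlb. They were taken by gene name, and each matched 1 of the 42989 rows of the deposited table. The libraries were made from RNA of the distal ileum, the end of the small intestine, in 10 wild-type male C57BL/6J mice with diet-induced obesity. From 10 weeks of age, 5 mice received taurodeoxycholic acid (TDCA), a taurine-conjugated bile acid, by oral gavage at 10 mg per kg body weight for 4 weeks. The other 5 obese mice received an equal volume of water by gavage for 4 weeks. All 10 mice were obese and gavaged, so obesity and handling are shared by both groups. Each library came from about 20 mg of whole frozen tissue, so muscle and stroma were sequenced together with the epithelium, and replicates are called TDCA 1 to TDCA 5 and water 1 to water 5.

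Goblet cells are the mucus-secreting cells of the gut epithelium. They fold very large mucin chains in the endoplasmic reticulum, attach O-linked sugars to them in the Golgi, pack them in granules and release them into the lumen, where they swell into a gel. In the ileum this gel is loose and penetrable, and it carries antimicrobial proteins between the bacteria and the villi. The cells arise in the crypts from secretory progenitors, under transcription factors that include Atoh1 and Spdef.

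None of the 10 genes passed a test between TDCA and water mice, 9 of them by limma and Retnlb by exact permutation. Muc2, which encodes the gel-forming mucin of the intestine, averaged 92020 ± 19777 normalized counts in TDCA mice and 92897 ± 34429 in water mice (SD, n = 5 each). The largest difference among the tested genes was that of Zg16, a lectin gene, at 32849 ± 8943 normalized counts in TDCA mice and 40157 ± 10466 in water mice (SD, n = 5 each). Retnlb, a resistin-like gene inducible in goblet cells, was almost silent in both groups.

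Promoter sequence was held for 5 of the 10 genes in the RefSeq table of build GRCm38.p6, namely Muc2, Fcgbp, Agr2, Spdef and Atoh1. The 250 bases before the start are shown for the 3 that encode secretory products, because Atoh1 binds DNA at E-boxes. TDCA 5 was among the 2 lowest libraries for 8 of the 9 tested genes, these 3 and also Spdef and Atoh1 included. Any part of E-boxes in these levels was not tested. Capitals mark every E-box (CANNTG, read on both strands), and each sequence runs 5′ to 3′ on the plus strand.
Muc2, chr7:141690090-141690339: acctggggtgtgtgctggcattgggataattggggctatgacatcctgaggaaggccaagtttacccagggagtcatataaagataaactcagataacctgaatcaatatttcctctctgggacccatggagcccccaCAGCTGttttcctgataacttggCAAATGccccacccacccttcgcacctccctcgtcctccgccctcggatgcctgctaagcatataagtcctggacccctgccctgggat
Fcgbp, chr7:28070986-28071235: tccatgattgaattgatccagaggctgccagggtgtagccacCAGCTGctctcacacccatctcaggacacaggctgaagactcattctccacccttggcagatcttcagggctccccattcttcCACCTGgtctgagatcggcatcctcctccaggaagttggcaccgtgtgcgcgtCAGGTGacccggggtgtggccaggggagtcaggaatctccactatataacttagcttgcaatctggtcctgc
Agr2, chr12:35992675-35992924: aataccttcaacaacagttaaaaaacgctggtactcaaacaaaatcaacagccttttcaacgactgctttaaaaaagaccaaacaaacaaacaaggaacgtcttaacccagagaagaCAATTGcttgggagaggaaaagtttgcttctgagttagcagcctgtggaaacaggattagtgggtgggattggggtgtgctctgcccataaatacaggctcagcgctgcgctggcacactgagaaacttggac
The window held 2 E-boxes in Muc2, 3 in Fcgbp and 1 in Agr2, and none in Spdef or Atoh1, while 66.2% of 32851 promoter windows of the same length held at least 1. The form CAGCTG stood once in the Muc2 and once in the Fcgbp window, against 13.0% of all windows. GGAT, the core letters bound by ETS factors such as Spdef, stood 4 times in Muc2, 2 times in Fcgbp, 2 times in Agr2, 5 times in Spdef and not in Atoh1, and 74.1% of all windows held it on either strand. The forkhead letters TGTTTAC were in none of the 5 windows (3.17% of all windows). TATAAA was found in Muc2 (12.4% of all windows). A match describes letters only and is no evidence of binding. CAGCTG is 1 form of CANNTG, and overlap between the other motifs was not counted.

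The libraries held 27349003 to 44342245 reads on genes, and this total overlapped between the groups (exact permutation test, two-sided p = 0.294). Marker genes of muscle and epithelium varied from library to library. A smooth muscle score, the mean centred log2 level of 11 muscle genes, averaged 0.34 ± 0.34 in TDCA and −0.34 ± 0.64 in water libraries (SD, n = 5 each; p = 0.0873 by two-sided exact permutation). A pan-epithelial score over 10 genes averaged −0.13 ± 0.27 in TDCA and 0.13 ± 0.16 in water libraries (exact permutation p = 0.0794). TDCA 5 had the highest muscle score (0.82) and the lowest epithelial score (−0.57), water 1 had the lowest muscle score (−1.13), and water 3 had the highest epithelial score (0.31). In water 3 mitochondrial ribosomal RNA took 30.2% of reads, against 40.5 to 48.1% in the other libraries. In whole tissue, fewer goblet cells and less RNA per goblet cell cannot be told apart.

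The 10 genes together took 0.976% ± 0.173 of all reads in TDCA libraries and 0.983% ± 0.452 in water libraries (SD, n = 5 each). Single libraries lay between 0.699% (TDCA 5) and 1.15% (TDCA 4) among TDCA mice. Among water mice they lay between 0.620% (water 4) and 1.77% (water 3), so for this share the TDCA range lay inside the water range. In summed normalized counts, however, TDCA 5 (218887) lay below the water range of 251373 to 518721. Water 3 set the top of the water range by both measures. The reads that its share was taken of held 30.2% mitochondrial ribosomal RNA, against 40.5 to 48.1% in the other libraries. By normalized counts Fcgbp made up 42.8% ± 4.49 of the sum of the 10 genes in TDCA and 43.1% ± 2.92 in water libraries, and Muc2 made up 26.7% ± 1.65 in TDCA and 25.6% ± 1.95 in water libraries. These 2 genes thus held most of the reads of the 10.

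Levels of different genes were compared only per kilobase of annotated exon (GENCODE M21). Muc2 was left out of this order, because the annotation marks its locus as fragmented and its exon length is not reliable. Over the 10 libraries Zg16 stood at 29040 ± 7918 normalized counts per kb, Tff3 at 25089 ± 5323, Clca1 at 14507 ± 3523 and Fcgbp at 14438 ± 3731 (SD, n = 10). These 4 abundant products overlapped in their ranges. Zg16 was above Tff3 in 7 of 10 libraries, Tff3 above Clca1 in all 10, and Clca1 above Fcgbp in 4. Spink4 followed at 3073 ± 778 and Agr2 at 1773 ± 395 normalized counts per kb, with Spink4 above Agr2 in every one of the 10 libraries although their ranges overlapped. The transcription factors were far lower, Atoh1 at 170 ± 38.7 and Spdef at 90.6 ± 17.4, with Atoh1 above Spdef in all 10. Retnlb stood last at 4.19 ± 6.60 normalized counts per kb, below every other gene in each of the libraries.

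**Figure D1:**
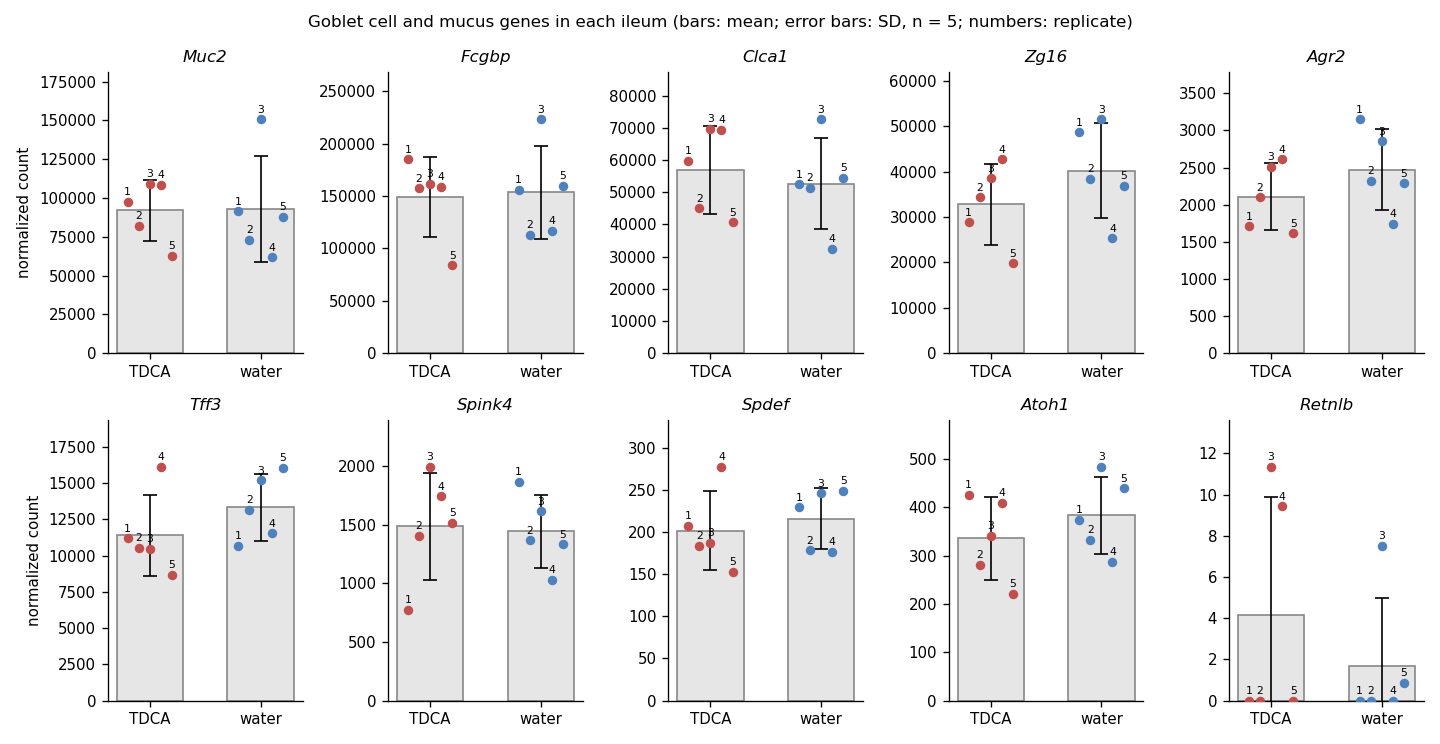
Normalized counts of the 10 genes in each library, TDCA left and water right, with the group mean (bar) and SD (error bar, n = 5). The groups overlap for every gene, TDCA 5 is lowest for 6 of the 9 tested genes and water 3 is highest for 5 of them.

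The comparison of TDCA with water asks whether transcripts of the obese ileum differ after 4 weeks of the bile acid, and here whether those of goblet cells do. It was made with limma on log2(normalized count + 1), so each fold change below is on that scale, is TDCA over water, and understates the change of low genes. Genes with at least 10 normalized counts in at least 5 libraries were tested, 17507 in all, with Benjamini-Hochberg adjustment over all of them and a threshold of 0.05. Retnlb was below this filter and the other 9 members passed it. Limma called 0 of the 9, and it called 0% of all genes tested (smallest adjusted p = 0.448). At an unadjusted p under 0.05 it had 0 of the 9 members, against 11% of all genes tested (1919 genes; 5.95% of genes higher and 5.01% lower in TDCA mice). EdgeR's quasi-likelihood test on whole reads recovered from the table called 0 members and 0% of genes (1755 genes at an unadjusted p under 0.05). DESeq2 called 0 members and 0.181% of genes, 25 of 13800. In the authors' deposited table the adjusted p of the members ran from 0.651 for Zg16 to 0.987 for Muc2, and Retnlb had none. Of the 9 members 6 had a fold change below 0 and 3 above, where 52.1% of all genes tested were below 0. Their median log2 fold change was −0.11, beside −0.01 over all genes tested. This median was −0.23 without TDCA 4 and −0.02 without TDCA 5. It was 0.15 with either the smooth muscle or the pan-epithelial score as a covariate.

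The genes for the structural proteins of the mucus gel overlapped widely between the groups. Muc2 (ENSMUSG00000025515) held 97596, 82127, 109283, 108502 and 62593 normalized counts in TDCA 1 to 5, against 91380, 72825, 150724, 61822 and 87734 in water 1 to 5. The TDCA values lay inside the water range, whose ends were water 3 and water 4. The log2 fold change was 0.03 (SE 0.25, limma adjusted p = 0.977), and its 95% confidence interval of −0.52 to 0.57 reached from 0.697-fold to 1.49-fold. Fcgbp (ENSMUSG00000047730), whose large protein is bound into the Muc2 network, held 184939, 157481, 161733, 158733 and 83725 normalized counts in TDCA 1 to 5, against 155619, 113232, 223344, 117009 and 159691 in water 1 to 5. Of the TDCA mice 4 lay close together and TDCA 5 lay far below them. Its log2 fold change was −0.05 (SE 0.26, limma adjusted p = 0.957, 95% interval −0.61 to 0.52), and 0.15 without TDCA 5. With array weights it was 0.08 and with quantile normalization 0.24.

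Clca1 (ENSMUSG00000028255), a secreted metalloprotease that acts on the Muc2 gel, was the member with the largest positive value. It held 59700, 44967, 69690, 69454 and 40623 normalized counts in TDCA 1 to 5, against 52466, 51407, 72686, 32478 and 54471 in water 1 to 5. The groups overlapped, with water 3 on top and water 4 at the bottom. The log2 fold change was 0.12 (SE 0.23, limma adjusted p = 0.865, 95% interval −0.39 to 0.63), and −0.04 without water 4.

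Zg16 (ENSMUSG00000049350), a lectin that binds the wall of Gram-positive bacteria, held 28835, 34370, 38558, 42724 and 19758 normalized counts in TDCA 1 to 5, against 48693, 38390, 51564, 25285 and 36854 in water 1 to 5. The 2 highest libraries were of water mice and the lowest was TDCA 5, but the ranges overlapped. The log2 fold change was −0.30 (SE 0.24, limma adjusted p = 0.657), and the interval of −0.83 to 0.24 reached down to 0.564-fold. The fold change was −0.45 without water 4 and −0.12 without TDCA 5. Tff3 (ENSMUSG00000024029), the trefoil peptide secreted with Muc2 and linked to repair of the epithelial surface, held 11188, 10554, 10483, 16147 and 8681 normalized counts in TDCA 1 to 5, against 10676, 13148, 15198, 11542 and 16072 in water 1 to 5. TDCA 4 had the highest Tff3 level of all and the other TDCA libraries lay in the lower part of the water range or under it. The log2 fold change of Tff3 was −0.24 (SE 0.18, limma adjusted p = 0.625, 95% interval −0.63 to 0.15).

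Spink4 (ENSMUSG00000028415), a Kazal-type protease inhibitor gene of goblet cells, held 776, 1405, 1998, 1743 and 1520 normalized counts in TDCA 1 to 5, against 1865, 1369, 1617, 1031 and 1335 in water 1 to 5. TDCA mice held both the lowest and the highest library for this gene. The log2 fold change was 0.0044 (SE 0.24, limma adjusted p = 0.996, 95% interval −0.51 to 0.52), and it was below 0 without any one of TDCA 3, 4 or 5 or of water 2, 4 or 5 (−0.12 at the lowest).

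Agr2 (ENSMUSG00000020581) encodes the protein disulfide isomerase that goblet cells need to make Muc2. It held 1709, 2100, 2513, 2609 and 1615 normalized counts in TDCA 1 to 5, against 3151, 2317, 2851, 1741 and 2288 in water 1 to 5. Water 1 and water 3 were above every TDCA mouse and the other values were mixed. The log2 fold change was −0.23 (SE 0.18, limma adjusted p = 0.650, 95% interval −0.62 to 0.17).

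The lineage factors likewise overlapped between the groups. Atoh1 (ENSMUSG00000073043), which commits crypt cells to the secretory fate, held 426, 282, 341, 409.6 and 221 normalized counts in TDCA 1 to 5, against 375, 333, 484, 287 and 439 in water 1 to 5. Its log2 fold change was −0.21 (SE 0.20, limma adjusted p = 0.703, 95% interval −0.63 to 0.22). Spdef (ENSMUSG00000024215), an ETS factor that drives goblet cell maturation, held 207, 184, 187, 278 and 153 normalized counts in TDCA 1 to 5, against 229, 178, 246, 177 and 249 in water 1 to 5. Its log2 fold change was −0.11 (SE 0.17, limma adjusted p = 0.827, 95% interval −0.49 to 0.26). TDCA 5 was the lowest library for both factors, and TDCA 4 the highest for Spdef.

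Retnlb (ENSMUSG00000022650), whose protein acts against Gram-negative bacteria and which microbes and type 2 cytokines induce, was found in 4 of 10 libraries. Read counts were 13 in TDCA 3 and 11 in TDCA 4, against 7 in water 3 and 1 in water 5, and 0 in the other 6 libraries. A count of 0 allows up to 3 reads, which in these 6 libraries is 2.63 to 3.60 normalized counts. Normalized counts were 11.4 in TDCA 3 and 9.43 in TDCA 4, against 7.52 in water 3 and 0.868 in water 5. The difference stayed within the spread (exact permutation test on the log2 scale, two-sided p = 0.683, where the smallest possible p is 0.00794). The libraries with Retnlb reads included the 2 with the highest mean level of the 9 tested goblet genes, water 3 (0.44 above the mean on the log2 scale) and TDCA 4 (0.29).

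**Figure D2:**
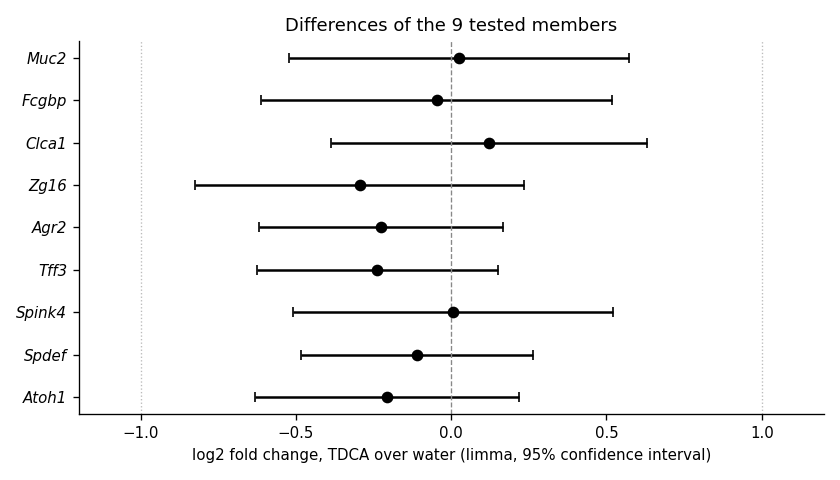
Log2 fold change of TDCA over water for the 9 tested genes, with the 95% confidence interval from limma; the dashed line marks no change and the dotted lines 2-fold changes. Every interval spans 0, and the point estimates lie between −0.30 for Zg16 and 0.12 for Clca1.

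A measure of RNA composition that differed between the groups runs along transcript length. In each library the centred level of a gene was correlated with the length of its longest transcript across genes, and this Spearman correlation averaged 0.07 ± 0.07 in TDCA and −0.10 ± 0.05 in water libraries (SD, n = 5 each; p = 0.0159 by two-sided exact permutation). For the members, the lengths given next are all annotated exon of the gene, not the longest transcript. Muc2 is left out, because its exon length is not reliable. Among the other tested secretory products, the longest were Fcgbp (10497 bases, log2 fold change −0.05) and Clca1 (3777 bases, 0.12). Shorter were Tff3 (493 bases, −0.24), Zg16 (1257 bases, −0.30), Agr2 (1291 bases, −0.23) and Spink4 (477 bases, 0.0044). The part of RNA composition in these differences was not tested.

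Many of the genes were high or low in the same mice. TDCA 5 was the lowest library for 6 of the 9 tested genes and among the 2 lowest for 8, all but Spink4. Water 3 was the highest for 5 and among the 2 highest for 6. Water 4 was the lowest for Muc2 and Clca1 and among the 2 lowest for 5. Over the 10 libraries the highest exceeded the lowest 1.82-fold for Spdef, 1.86-fold for Tff3, 2.44-fold for Muc2 and 2.67-fold for Fcgbp. TDCA 5 was also the library with the highest smooth muscle and lowest epithelial score, and water 3 the one with the highest epithelial score. The part of tissue make-up in the low and high libraries was not tested.

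**Figure D3:**
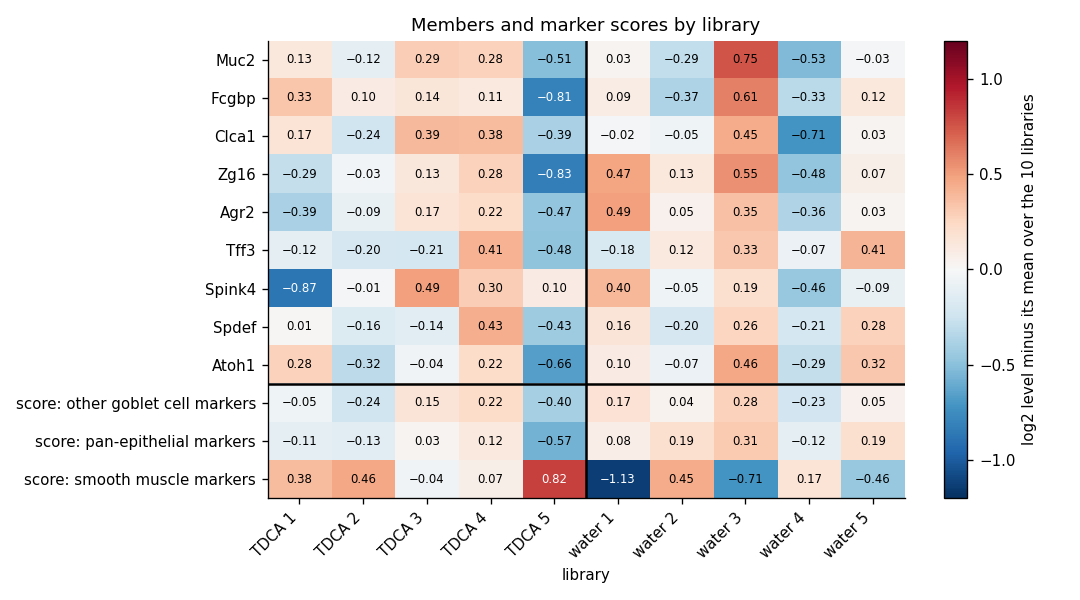
Log2 level of each tested gene minus its mean over the 10 libraries (upper rows) and the same mean over 3 marker lists (lower rows); red is above and blue below the gene's mean. TDCA 5 is below the mean for every gene except Spink4, and its smooth muscle score is 0.82; water 3 is above the mean for every gene, with a smooth muscle score of −0.71.

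The level of the goblet genes was also read against that of the epithelium in the same library. The summed normalized count of the 10 genes was 1.53 ± 0.185 times that of the pan-epithelial markers in TDCA and 1.39 ± 0.351 times in water libraries (SD, n = 5 each). The ratio was 1.68, 1.25, 1.53, 1.71 and 1.49 in TDCA 1 to 5, against 1.33, 1.06, 1.97, 1.17 and 1.40 in water 1 to 5. TDCA 5, which had the lowest summed count of the members of all 10 libraries, lay in the middle of the 10 ratios, and the groups overlapped. Against enterocyte markers the ratio was 0.457 ± 0.103 in TDCA and 0.360 ± 0.141 in water libraries. Against smooth muscle markers it was 1.80 ± 0.693 in TDCA and 3.27 ± 1.92 in water libraries, with water 1 (5.02) and water 3 (5.40) far above the rest. In a limma fit with the pan-epithelial score as a covariate, every tested member had a fold change above 0, from 0.03 for Tff3 to 0.53 for Clca1, and 0 passed. When the covariate was instead the smooth muscle score, the values ran from −0.15 for Tff3 to 0.44 for Clca1, again with 0 passing.

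Measured against Muc2 in the same library, the members kept their proportions to differing degrees. The within-group SD of the log2 level was 0.39 for Clca1, and that of the log2 ratio of Clca1 to Muc2 was 0.17. For Fcgbp these SDs were 0.42 for the level and 0.20 for the ratio, for Zg16 0.42 and 0.24, and for Atoh1 0.35 and 0.22. For Agr2 they were 0.32 and 0.29. For these 5 genes the ratio to Muc2 varied less than the level. For Tff3 the SD was 0.29 for the level and 0.35 for the ratio, for Spink4 0.43 and 0.49, and for Spdef 0.28 and 0.28, so that dividing by Muc2 did not narrow their spread. The log2 ratio of Zg16 to Muc2 was −1.51 ± 0.21 in TDCA and −1.18 ± 0.27 in water libraries (SD, n = 5 each), which was the largest difference among the 8 ratios, and it overlapped between the groups. Of the 36 ratios between pairs of tested members, 0 separated the groups without overlap.

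**Figure D4:**
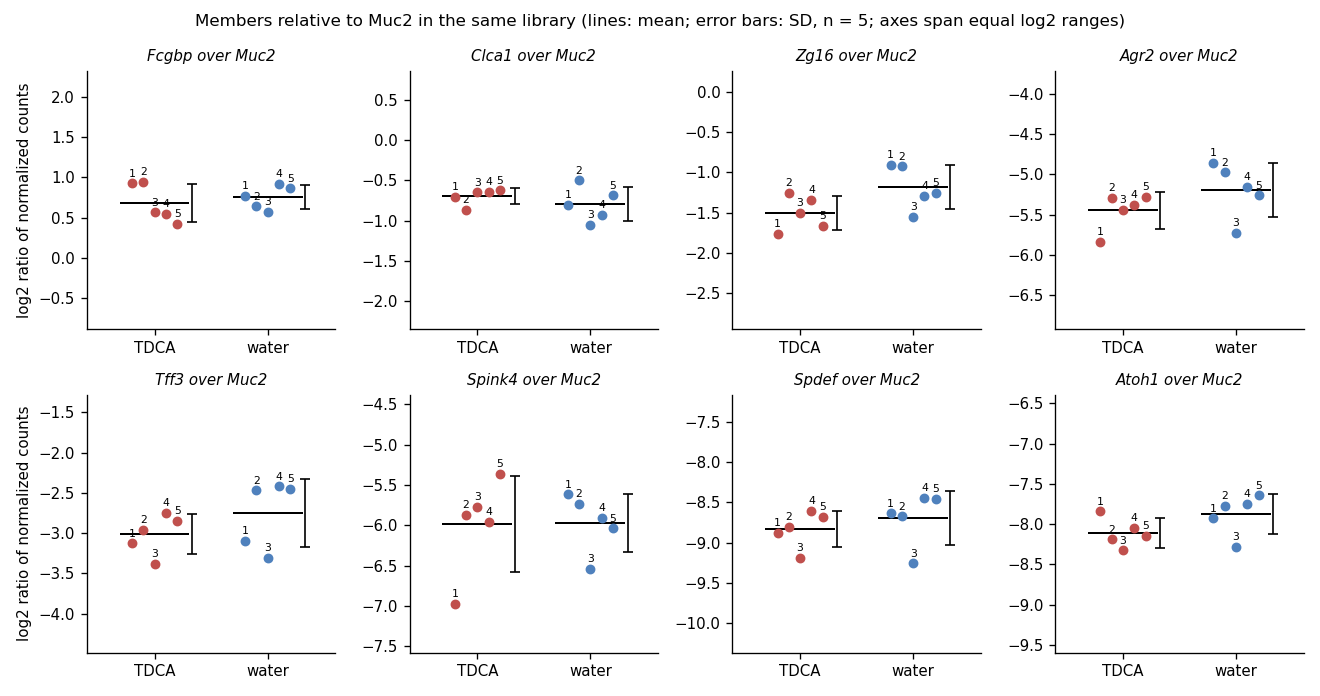
Log2 ratio of each member's normalized count to that of Muc2 in the same library, TDCA left and water right; lines are group means and error bars SD (n = 5), and all axes span the same log2 range. Clca1 and Fcgbp form the tightest bands, TDCA 1 stands low for Spink4, and water 3 is the lowest water library for all 8 ratios.

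Among the genes whose log2 level was most like the mean of the 9 tested members over the 10 libraries were Sprr2a3 (Pearson r = 0.95, Spearman rho = 0.95), Elapor1 (r = 0.94, rho = 0.96), Ctns (r = 0.94, rho = 0.92) and Dffb (r = 0.93, rho = 0.93). They were among the 5 genes of highest r of all tested genes whose mean reached 50 normalized counts, and all libraries share the tissue differences above, so these values are a description. Sprr2a3 has close copies and its reads are uncertain. Among the members themselves the likeness to this mean, which includes them, ran from r = 0.46 for Spink4 and 0.69 for Tff3 to 0.91 for Muc2 and 0.93 for Zg16.

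Other genes of the mucus system were read from lists and likewise gave no call, 0 of their tested genes passing in either direction. Of 24 other goblet cell markers 21 were tested, 15 below and 6 above 0, with a median log2 fold change of −0.09. Ccl6, a chemokine gene, averaged 1024 ± 186 normalized counts in TDCA mice and 1331 ± 179 in water mice (SD, n = 5 each; log2 fold change −0.39, SE 0.14, limma adjusted p = 0.448). Guca2a, the guanylin gene, averaged 4525 ± 1305 in TDCA and 5894 ± 910 in water mice (−0.41, SE 0.19). Tff1, Tff2 and Best2 were not among the genes tested. In this list the median leaned the same way as that of the epithelial markers (−0.28), and the part of tissue make-up in it was not tested.

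Of 12 other mucins 5 were tested (median −0.11). Muc3, a transmembrane mucin of the enterocyte brush border, held 93529 ± 21323 normalized counts in TDCA and 121524 ± 29791 in water mice (−0.38, SE 0.23), and Muc4, another transmembrane mucin, 228 ± 23.9 in TDCA and 172 ± 81.9 in water mice (0.52, SE 0.26; SD, n = 5 each). The gastric and airway gel mucins Muc5ac, Muc5b and Muc6 were not among the genes tested. Muc3 leaned the same way as the enterocyte markers, whose median was −0.52, and Muc4 the other way. The part of tissue make-up in these values was not tested.

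Mucin O-glycosylation had 35 of 37 genes tested (median −0.11), 25 rows below and 11 above 0, 1 name having 2 rows. The largest positive value of the mucus lists was here. Fut2, which adds the terminal fucose of the secretor glycans, held 146 ± 77.9 normalized counts in TDCA and 47.8 ± 32.3 in water mice (1.64, SE 0.48, limma adjusted p = 0.448). St6galnac6, a sialyltransferase gene, held 213 ± 76.4 in TDCA and 121 ± 40.5 in water mice (0.83, SE 0.32, same adjusted p). In the glycan list as in the members, the groups' ranges overlapped for every gene, where 1.4% of all genes tested did not overlap.

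Of 19 genes of secretory lineage control 18 were tested (median −0.09). Elf3, an epithelial ETS factor that is also in the pan-epithelial list, held 1755 ± 205 normalized counts in TDCA and 2345 ± 484 in water mice (−0.40, SE 0.14), and Cdx2, the intestinal homeobox factor, 2065 ± 461 in TDCA and 2748 ± 469 in water mice (−0.43, SE 0.17). All 25 genes of mucin folding were tested, 21 below and 4 above 0 (median −0.18, lowest −1.21), where 52.1% of all genes tested were below 0. Of the 25, 1 did not overlap between the groups, against 1.4% of all genes tested. At an unadjusted limma p under 0.05, 4 of the 25 were lower in TDCA mice, against 5.01% of all genes tested. Ssr4, of the translocon-associated complex, held 558 ± 58.6 in TDCA and 719 ± 79.6 in water mice (−0.36, SE 0.11), and the chaperone partner Sdf2l1 367 ± 53.3 in TDCA and 490 ± 100 in water mice (−0.40, SE 0.16). For Elf3, Cdx2, Ssr4 and Sdf2l1 limma's adjusted p was 0.448.

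Granule release and ion supply had 24 genes tested (median −0.10). Cftr, the chloride and bicarbonate channel whose secretion lets mucins unfold, held 2359 ± 825 normalized counts in TDCA and 3496 ± 1097 in water mice (−0.57, SE 0.25, limma adjusted p = 0.450), and Stxbp2, of granule exocytosis, 1294 ± 210 in TDCA and 1574 ± 202 in water mice (−0.29, SE 0.13). Mucus processing and luminal partners had 16 genes tested, 8 below and 8 above 0 (median 0.00035). In it Itln1, an intelectin of Paneth and goblet cells, held 5245 ± 1686 in TDCA and 7636 ± 1060 in water mice (−0.60, SE 0.22), and Pigr, the receptor that carries IgA into the mucus, 49438 ± 14158 in TDCA and 30422 ± 14798 in water mice (0.83, SE 0.36). Type 2 and interleukin 22 signals had 10 of 17 genes tested (median −0.20), with Stat3 at −0.18 (SE 0.10) and Il13ra1 at −0.19 (SE 0.12). The cytokine genes Il4, Il5, Il9, Il13, Il22 and Il25 were not among the genes tested.

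**Figure D5:**
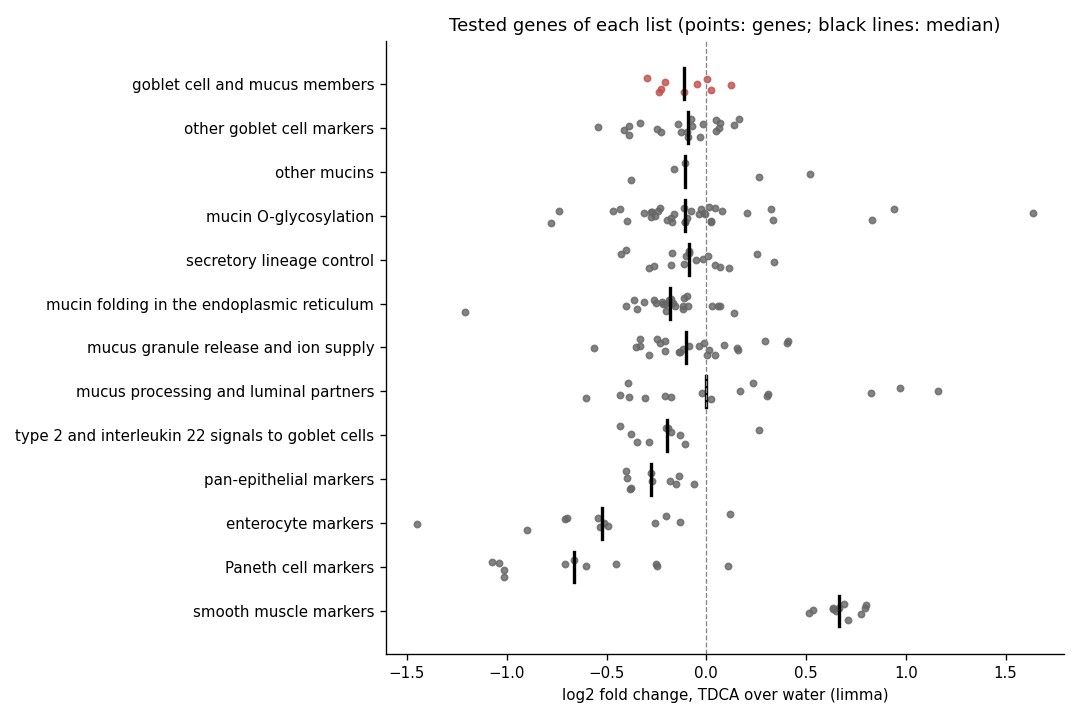
Log2 fold change of TDCA over water for each tested gene of the mucus lists and of 4 marker lists; points are genes, black lines medians. The members (red) lie between −0.30 and 0.12 around a median of −0.11, while smooth muscle markers lie between 0.52 and 0.80 and pan-epithelial markers between −0.40 and −0.06.

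Markers of other cell types were read in the same fit, where limma called 0 of them, while DESeq2 called Defa24, Ang4 and Olfm4 lower in TDCA mice. Medians were −0.66 for 11 Paneth cell markers (Defa24 −1.01, Ang4 −1.01), −0.52 for 12 enterocyte markers (Npc1l1 −0.71, Alpi −0.53), −0.46 for 11 enteroendocrine markers (Neurod1 −0.60, Nts −0.58), −0.49 for 9 stem and cycling cell markers (Olfm4 −1.57, Pcna −0.62) and −0.28 for 10 pan-epithelial markers (Elf3 −0.40, Tspan8 −0.40). They were 0.06 for 10 tuft cell markers (Ptgs1 0.37, Sh2d6 −0.27), 0.67 for 11 smooth muscle markers (Lmod1 0.80, Synpo2 0.77), 0.40 for 7 fibroblast markers (Pdgfra 0.41, Col3a1 0.40) and 0.37 for 7 B cell markers (Ms4a1 0.55, Jchain 0.53). The summed smooth muscle markers ranged over 161448 to 281318 normalized counts in TDCA and 72598 to 211124 in water libraries, and no marker of any of these lists was at 0 in all libraries. The goblet members had a median nearer to 0 than those of the Paneth, enterocyte and enteroendocrine lists, and the difference between these lists was not tested. The same held for the other goblet cell markers (−0.09), mucin O-glycosylation (−0.11) and the tuft cell markers (0.06), so it was not particular to the members.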

How the data were processed

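Per the labels, total RNA libraries were prepared with the Zymo-Seq RiboFree kit, which removes ribosomal RNA. The submitters' processing notes name build GRCm39, MultiQC 1.9 and DESeq2 1.28.0. Not given in the sources used here: aligner, counter and strand setting. As one table, the authors deposited normalized counts, a signal made of reads divided by a size factor per library: 100% of values were whole multiples of each library's smallest, within 0.0001 of a read, which gave back whole reads. The authors deposited a second table with a log2 fold change, a test score and a p-value, raw and adjusted, per gene, which gave gene names; DESeq2 run here differed from its adjusted p by over 0.001 for 0 genes. Groups were compared by two-sided limma-trend (limma 3.58.1 in R 4.3.3; robust moderation) on log2(normalized count + 1). Also tried were a pseudocount of 0.5 or 8, a filter of 50 or none, TMM and quantile normalization, plain moderation, array weights, limma-voom, edgeR 4.0.16, DESeq2 1.42.0, a replicate block, 1 library left out at a time, and the smooth muscle or pan-epithelial score as a covariate; the fit without both water 1 and TDCA 5 was chosen after seeing the data. Members, gene lists and tests were chosen with earlier results of these data known. Named are the members, 2 genes of smallest p per list (mean of at least 50 normalized counts) and the 5 genes most like the members, of which 1 is not reported here. Lists share Ern2, Elf3 and Itln1. On simulated counts of TDCA against water (17252 genes), limma recovered 66% of 2-fold and 95% of 4-fold changes, with 8 false calls. Over 17507 genes edgeR recovered 66% and 95% with 9 false calls, and DESeq2 78% and 98% with 35. In the data themselves limma called neither Olfm4 (log2 fold change −1.57) nor Fut2 (1.64), so these rates were not shown to hold here. Lengths were matched for 99.4% of tested genes. The series' design text calls the 5 libraries of each group biological replicates. Limits on counts cover counting error only.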

Additional observations from a re-analysis of the deposited data

Results flagged for a closer look

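Of 90 groups of 5 libraries examined, 7 had 1 library far from the other 4, and chance alone gives about 1 in 20. Fcgbp was 83725 normalized counts in TDCA 5 and 157481 to 184939 in the other TDCA mice. Retnlb was 7.52 in water 3 and at most 0.868 in the other water mice. St6galnac6 was 50.5 in water 1 and 122 to 147 in the other water mice. Cftr was 3806 in TDCA 4 and 1789 to 2157 in the other TDCA mice. Alpi was 4562 in TDCA 5 and 8523 to 9931 in the other TDCA mice. Pcna was 956 in water 1 and 662 to 737 in the other water mice. Ms4a1 was 618 in water 5 and 9.67 to 70.6 in the other water mice. TDCA 5 had the highest smooth muscle score of the 10 libraries, and the part of tissue make-up in these values was not tested.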

How the results depend on the processing

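DESeq2 called 25 genes, none of them a member, where limma and each other alternative called 0; the cause was not tested. Fold changes below are log2, TDCA over water, and 0 members passed under any alternative. Fcgbp turned above 0 with quantile normalization (0.24), array weights (0.078), the smooth muscle covariate (0.34), the pan-epithelial covariate (0.35) and without both water 1 and TDCA 5 (0.17). With array weights Spink4 was −0.045 and Ms4a1 −0.36. With edgeR Muc2 was −0.00717 and Ms4a1 −0.25, and with DESeq2 they were −0.014 and −0.24. With the smooth muscle covariate Zg16 was 0.11, Agr2 0.11, Spdef 0.15, Atoh1 0.074, Ptgs1 −0.11 and Ms4a1 −0.74. With the pan-epithelial covariate Zg16 was 0.15, Agr2 0.058, Tff3 0.032, Spdef 0.14, Atoh1 0.14 and Ms4a1 −0.46. Without both water 1 and TDCA 5, chosen after seeing the data, Spdef was 0.00827 and Ms4a1 −0.29. Leaving out 1 library at a time gave −0.10 to 0.22 for Muc2, −0.15 to 0.15 for Fcgbp, −0.042 to 0.25 for Clca1, −0.12 to 0.22 for Spink4 and −0.056 to 1.41 for Ms4a1. Without a change of sign it gave −0.45 to −0.12 for Zg16, −0.34 to −0.13 for Agr2, −0.37 to −0.15 for Tff3, −0.31 to −0.067 for Atoh1 and −0.23 to −0.018 for Spdef. The median of the members was −0.23 to −0.02 over these fits, and 0.00827 without both water 1 and TDCA 5. The cause of these reversals was not tested. Replicate numbers here are those of the sample descriptions, and by them the libraries showed no pairing (correlations −0.15 to 0.17, 0 of 5 TDCA libraries closest to their own number). The replicate block on these numbers called 0 genes, with 1582 at an unadjusted p under 0.05 against 1919 without it. The sample titles carry other numbers, and pairing by those was not tested. Of the values with a verdict, 1032 kept direction and side of the threshold or, where untested, moved by less than the spread. A further 40 changed sign, all of them of members, Ms4a1 or Ptgs1. Another 3 passed the threshold only with DESeq2 (Defa24, Ang4 and Olfm4). With 5 mice a group, the 95% interval of Zg16 reached down to 0.564-fold and that of Clca1 up to 1.55-fold, while that of Tff3 ended at 1.11-fold; no limit of detection was set for single members.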

Other observations

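Of the 36 ratios between members, that of Clca1 to Zg16 differed most between the groups, a pair chosen after its values were seen and so given with no test. The ratio was 2.07, 1.31, 1.81, 1.63 and 2.06 in TDCA 1 to 5, against 1.08, 1.34, 1.41, 1.284 and 1.48 in water 1 to 5. It averaged 1.77 ± 0.319 in TDCA and 1.32 ± 0.153 in water mice (SD, n = 5 each). In 4 of the 5 TDCA mice it lay above every water mouse, and TDCA 2 lay inside the water range. Clca1 is the longer gene (3777 bases of exon, against 1257 for Zg16). The correlation of level with transcript length was higher in TDCA (0.07) than in water libraries (−0.10). The part of RNA composition in this ratio was not tested.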
